A study of Mus musculus with 27 samples.

Results

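Nucleotide excision repair was followed through 10 genes in mouse splenic B cells: Ddb2, Xpc, Ercc6, Ercc8, Ercc3, Ercc2, Xpa, Ercc1, Ercc4 and Ercc5. They were taken by gene name from the 54532 genes of the count tables, and all 10 passed the filter on low counts in every comparison. The B cells came from the spleen of wild-type C57BL6 mice, were isolated by negative selection and were cultured for 3 h before poly-A RNA was sequenced. In the first experiment there were 5 groups of 4 libraries: unstimulated cells, cells stimulated with lipopolysaccharide (LPS), cells stimulated with IL-4+anti-CD40, and cells given either stimulus with 1 μM disulfiram (DSF), a drug used against alcoholism. The second experiment had 7 single libraries: unstimulated cells, and cells given either stimulus without inhibitor, with 1 μM DSF or with 1 μM ibrutinib, an inhibitor of the B cell kinase Btk. The cells without an inhibitor are labelled DMSO, the solvent. No group of unstimulated cells received DSF or ibrutinib.

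Nucleotide excision repair removes bulky lesions such as ultraviolet photoproducts by cutting out a short stretch of the damaged strand. In global genome repair the lesion is found by XPC and by DDB2, and in transcription-coupled repair a stalled RNA polymerase is recognised through CSB (Ercc6) and CSA (Ercc8). Both branches then use the helicases XPB (Ercc3) and XPD (Ercc2) of TFIIH, a complex that also serves transcription initiation, the verification factor XPA, and the nucleases ERCC1-XPF (Ercc1 with Ercc4) and XPG (Ercc5), before the gap is filled and sealed. Inherited loss of these genes is known from xeroderma pigmentosum and Cockayne syndrome.

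DSF lowered most of the 10 genes, and most of all Ercc4, the catalytic subunit of the ERCC1-XPF nuclease, which fell 2.38-fold with LPS and 2.15-fold with IL-4+anti-CD40. Xpa fell 1.87-fold and 1.57-fold. Ercc1, the partner of Ercc4, did not pass the test under either stimulus, while Ddb2 rose under both and Ercc6 rose with LPS. In LPS-stimulated cells 7 of the 10 genes were lower with DSF and 2 higher, where 36% of all 14154 genes tested were lower and 35.1% higher. With IL-4+anti-CD40 the counts were 6 lower and 1 higher, where 31.6% of 14275 genes were lower and 30.1% higher. The median log2 fold change of the 10 genes was -0.38 under LPS and -0.37 under IL-4+anti-CD40, beside medians of 0.0019 and -0.015 over all genes tested. A call here is an adjusted p under 0.05 in edgeR's quasi-likelihood test (Benjamini-Hochberg over all genes tested, 4 libraries per group).

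Stimulation itself moved the 10 genes in both directions. With LPS 5 rose and 5 fell against unstimulated cells, where 29.6% of all genes tested were higher and 33.3% lower, and with IL-4+anti-CD40 5 rose and 3 fell, where 30.4% were higher and 32.1% lower. Ercc8 rose most (2.4-fold and 2.49-fold), followed by Ercc2, Ercc6 and Ercc1. Ercc5, Xpa and Ddb2 fell under both stimuli, and Xpc and Ercc4 fell with LPS. With IL-4+anti-CD40 the log2 fold changes of Xpc and Ercc4 were also below 0 (-0.17 and -0.21) but did not pass the test.

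**Figure D1:**
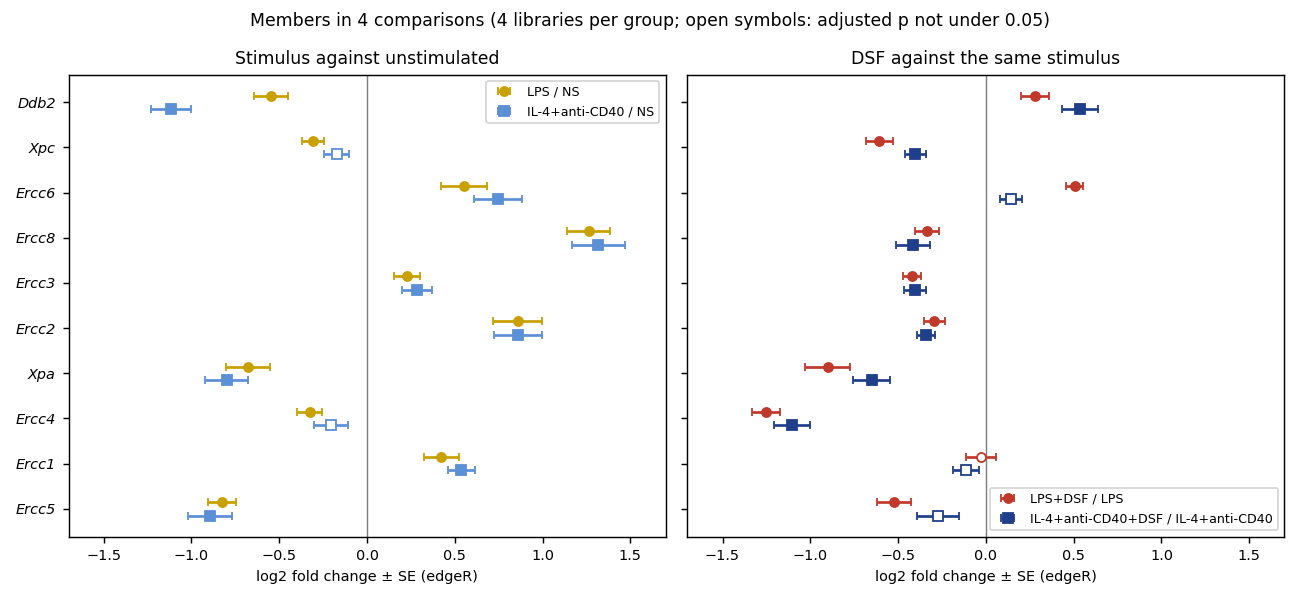
Log2 fold change (x axis, edgeR, ± SE) of each of the 10 genes (y axis) for each stimulus against unstimulated cells (left) and for DSF against the same stimulus (right), with 4 libraries per group and open symbols for genes that did not pass the test. Ercc4 and Xpa lie farthest to the left with DSF, Ercc1 lies near 0 there, and Ercc8 lies farthest to the right with either stimulus.

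Libraries of the first experiment held between 17804851 and 23632992 counts, and the 10 genes between 82 and 2764 counts per library. Unstimulated libraries 1 and 2 deviated together from their group mean (correlation 0.658 across genes), as did libraries 3 and 4 (0.597), and 9.02% of genes spanned at least 2-fold in this group, against 0.195% to 2.32% in the other groups. Comparisons with unstimulated cells are therefore also given against each pair, a choice made after seeing the data. All 8 defining B cell markers were detected in every group, with a summed level of 5750 to 10200 CPM (counts scaled to a common library total) in unstimulated cells. DSF libraries had lower sums without overlap, 3560 to 3760 against 5090 to 5230 CPM under LPS and 4550 to 4710 against 6710 to 8360 CPM under IL-4+anti-CD40. T cell, NK cell, neutrophil and erythroid marker lists summed to at most 37.9 CPM in any library. The 6 myeloid markers summed to 520 to 659 CPM in unstimulated cells and to 115 to 286 CPM in the other groups. Their sums were higher with DSF without overlap. They were 134 to 139 against 115 to 130 CPM under LPS, and 206 to 286 against 166 to 196 CPM under IL-4+anti-CD40. The 5 plasma cell markers summed to 587 to 814 CPM in unstimulated cells, and with DSF to 2160 to 2340 against 1820 to 1850 CPM under LPS and 1600 to 1660 against 1380 to 1460 CPM under IL-4+anti-CD40, with no marker of either list at 0 throughout a group. The part of these shifts in the results was not tested, and in bulk RNA fewer cells of a type and less RNA per cell cannot be told apart. Fold changes are relative to TMM scaling: by total counts the median of all genes tested moved from -0.046 to -0.27 with LPS and from -0.041 to -0.19 with IL-4+anti-CD40, and with DSF from 0.0019 to -0.21 and from -0.015 to -0.16, and calls of the 10 genes that this ended are given in the paragraph of their comparison.

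The promoters of 4 genes with different responses are shown from RefSeq (GRCm38.p6, the assembly that mm10 names), 5′ to 3′ on the strand of the gene and without transcribed bases: Ercc4 and Xpa, which fell most with DSF, Ercc6, which rose with LPS and DSF, and Ercc8, which rose most with the stimuli. Capitals mark exact matches, on either strand, to the NRF1 core TGCGCA, the GC box GGGCGG, the CCAAT box CCAAT and the E-box CACGTG. Their places are chr16:13109486-13109683 (plus strand) for Ercc4, chr4:46196312-46196561 (minus) for Xpa, chr14:32513271-32513520 (plus) for Ercc6 and chr13:108158488-108158730 (plus) for Ercc8.
Ercc4: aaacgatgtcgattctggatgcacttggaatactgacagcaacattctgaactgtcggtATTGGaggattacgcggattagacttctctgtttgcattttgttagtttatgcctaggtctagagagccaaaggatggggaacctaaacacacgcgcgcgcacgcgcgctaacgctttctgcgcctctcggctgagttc
Xpa: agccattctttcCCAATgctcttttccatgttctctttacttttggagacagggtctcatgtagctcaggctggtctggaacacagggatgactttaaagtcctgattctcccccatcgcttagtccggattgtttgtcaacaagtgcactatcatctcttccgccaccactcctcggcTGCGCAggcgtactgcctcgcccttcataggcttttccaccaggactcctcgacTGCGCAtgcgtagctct
Ercc6: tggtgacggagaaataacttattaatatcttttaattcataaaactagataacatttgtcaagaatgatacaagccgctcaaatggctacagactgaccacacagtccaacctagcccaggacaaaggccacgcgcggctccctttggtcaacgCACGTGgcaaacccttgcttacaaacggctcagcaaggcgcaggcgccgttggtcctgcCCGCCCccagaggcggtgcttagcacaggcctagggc
Ercc8: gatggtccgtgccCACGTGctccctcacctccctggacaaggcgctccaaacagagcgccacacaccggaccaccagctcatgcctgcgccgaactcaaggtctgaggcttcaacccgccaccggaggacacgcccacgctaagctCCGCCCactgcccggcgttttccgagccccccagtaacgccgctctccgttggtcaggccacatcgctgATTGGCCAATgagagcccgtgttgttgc
A promoter was found for 7 of the 10 genes (not for Ddb2, Xpc and Ercc3), and the motifs were searched in the 250 bases before each RefSeq start. Among these, 2 of 7 held the NRF1 core (6.43% of all 32851 promoters of that length), 4 the GC box (32.7%), 5 the CCAAT box (33.8%) and 2 the E-box (6.02%). The NRF1 core occurred 2 times before Xpa and once before Ercc2, and the E-box once each before Ercc6 and Ercc8. The promoter of Ercc4 held 1 CCAAT match and none of the other motifs, so Ercc4 and Xpa shared only the CCAAT box among these letters. A match describes the letters and says nothing of whether a factor was bound.

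Levels are given as the deposited FPKM (fragment counts scaled to exon length and to a factor per library), which are on a scale per length. The length is that of all annotated exons of a gene, not of the transcripts present, so the order of genes below depends on the annotation. The factor per library did not follow the count totals: FPKM were a median of 1.24 to 1.32 times RPKM computed with TMM in each library. They are therefore no check by total counts, and whether groups overlapped is stated on this scale. In unstimulated cells Ercc3 had the highest mean, 18.3 FPKM, followed by Xpa (10.2), Ddb2 (9.97), Ercc2 (7.57), Xpc (7.13), Ercc1 (5.38), Ercc4 (5.37), Ercc6 (5.3), Ercc5 (3.84) and Ercc8 (1.65). The SDs ran from 0.204 (Ercc1) to 1.9 FPKM (Ercc3), so that Xpa and Ddb2, Ercc2 and Xpc, and Ercc1, Ercc4 and Ercc6 did not differ from each other beyond their spread. With LPS and DSF the order was Ercc3 (15.6), Ercc2 (10.9), Ercc6 (10.8), Ddb2 (8.09), Ercc1 (6.93), Xpc (3.7), Xpa (3.36), Ercc8 (3.08), Ercc4 (1.76) and Ercc5 (1.47). Xpa thus stood in the second place of unstimulated cells and in the seventh with LPS and DSF, and Ercc6 moved from the eighth to the third.

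**Figure D2:**
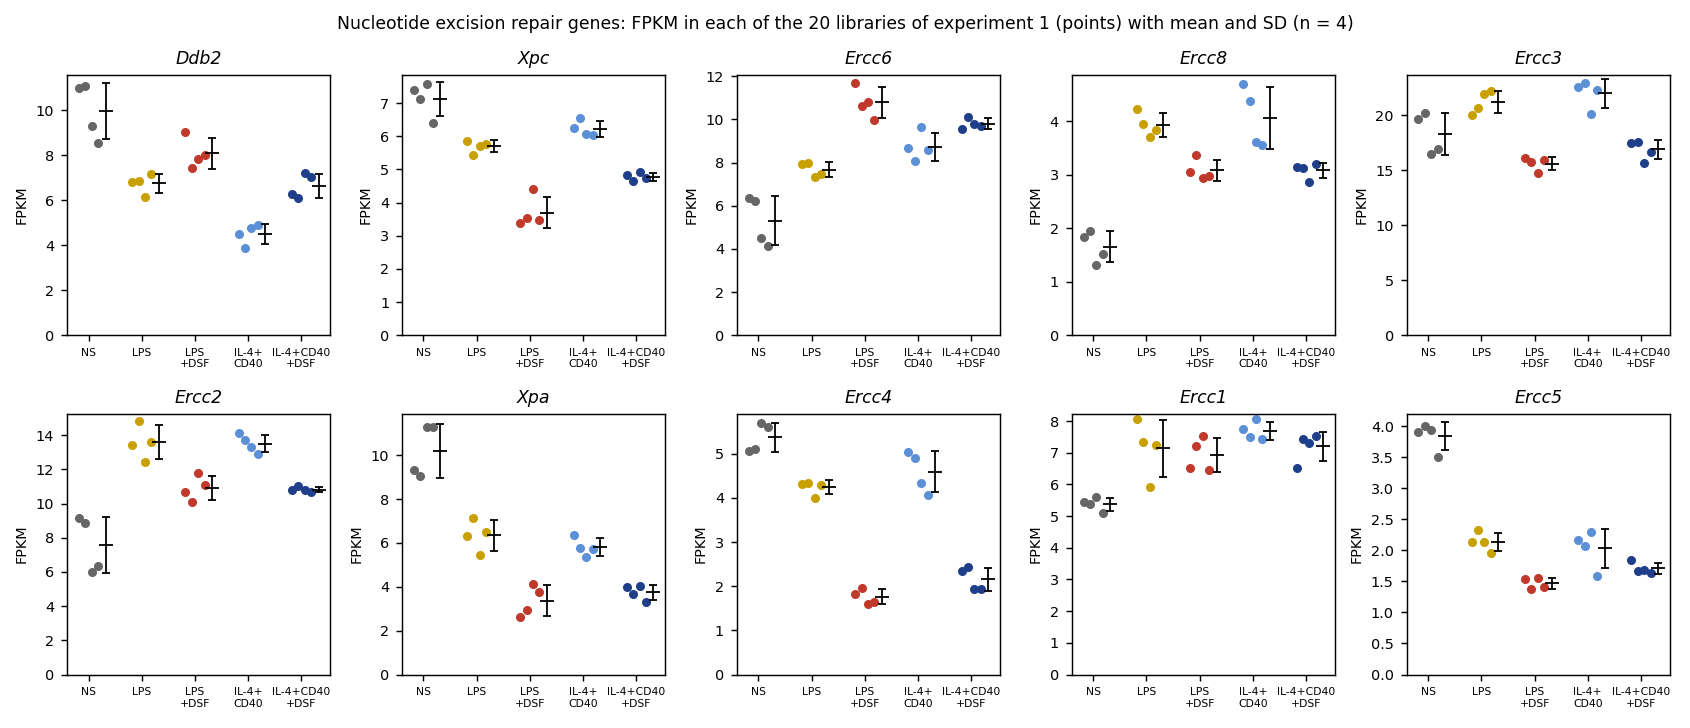
Deposited FPKM (y axes, each from 0) of the 10 genes in each of the 20 libraries of the first experiment, with 4 points per group in the order of their replicate numbers and the mean ± SD beside them (NS, unstimulated; IL-4+CD40, IL-4+anti-CD40). In the panel of Ercc4 every library with DSF lies between 1.59 and 2.43 FPKM and every other library between 4.01 and 5.7.

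Damage recognition in the global genome rests on Ddb2 and Xpc, and with DSF they moved in opposite directions. Ddb2, the damage-binding subunit of the UV-DDB complex (chromosome 2, 91211572 to 91236982, minus strand of mm10), had 11, 11.1, 9.29 and 8.54 FPKM in the unstimulated libraries, 6.81, 6.86, 6.14 and 7.17 under LPS, and 4.52, 3.9, 4.79 and 4.89 under IL-4+anti-CD40. The 3 groups did not overlap, and the level was lowest with IL-4+anti-CD40. Its level with DSF was 9.06, 7.44, 7.84 and 8.02 FPKM under LPS and 6.29, 6.12, 7.21 and 7.02 under IL-4+anti-CD40. On the FPKM scale, which was close to TMM, every library with DSF was above the same stimulus alone. Under LPS this separation depended on that scale. Ddb2 fell with LPS by 0.55 on the log2 scale (SE 0.0966, adjusted p = 0.00112, edgeR) and with IL-4+anti-CD40 by 1.12 (SE 0.115, adjusted p = 4.72e-05). DSF raised it by 0.28 under LPS (SE 0.0796, adjusted p = 0.003) and by 0.54 under IL-4+anti-CD40 (SE 0.102, adjusted p = 0.00077). It was the only one of the 10 genes called between the stimuli without DSF, at 0.62 higher with LPS (SE 0.0944, adjusted p = 0.000237, edgeR), where 22.3% of all genes tested were higher with LPS and 17.3% lower. Scaled by total counts, Xpc (-0.21, adjusted p = 0.00777), Ercc6 (-0.28, adjusted p = 0.00499) and Ercc4 (-0.20, adjusted p = 0.045) were called lower with LPS (edgeR). By the same scaling the rise of Ddb2 with DSF under LPS was 0.072 and did not pass the test (adjusted p = 0.433). The exons of Ddb2 share 652 bases (23.8%) with Acp2 on the opposite strand, and the strand setting of the counting is not given in the sources used here, so some of its counts may belong to Acp2.

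Xpc, the lesion sensor that starts global genome repair (chromosome 6, 91489305 to 91515888, minus strand), was at 7.4, 7.14, 7.58 and 6.41 FPKM in unstimulated cells, 5.87, 5.45, 5.72 and 5.78 under LPS, and 6.26, 6.55, 6.06 and 6.04 under IL-4+anti-CD40. DSF libraries were at 3.4, 3.53, 4.4 and 3.48 FPKM under LPS and 4.82, 4.65, 4.92 and 4.73 under IL-4+anti-CD40. Every library with DSF was below every library without it. DSF lowered Xpc by 0.61 on the log2 scale under LPS (SE 0.0762, adjusted p = 1.13e-07, edgeR) and by 0.40 under IL-4+anti-CD40 (SE 0.059, adjusted p = 0.00012). LPS alone lowered it by 0.31 (adjusted p = 0.00231, edgeR), and with IL-4+anti-CD40 the log2 fold change of -0.17 did not pass the test (adjusted p = 0.0644). That change passed by total counts (-0.32, adjusted p = 0.00419, edgeR) and in one fit over all 20 libraries (-0.23, adjusted p = 0.00756). Among the other genes of global genome recognition, Rad23b, Cul4b and Rbx1 rose with LPS and DSF (log2 fold changes 0.21, 0.40 and 0.20), and Cetn2 and Ddb1 fell (-0.86 and -0.23). Rad23b and Cetn2 encode partners of XPC, and Ddb1 the partner of DDB2.

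In transcription-coupled recognition Ercc6 rose and Ercc8 fell with DSF under LPS. Ercc6, the CSB translocase that engages stalled RNA polymerase (chromosome 14, 32513521 to 32580990, plus strand), was at 6.34, 6.22, 4.5 and 4.15 FPKM in unstimulated cells, which split 1 and 2 from 3 and 4. It was at 7.93, 7.98, 7.32 and 7.45 FPKM under LPS and 8.66, 8.08, 9.63 and 8.59 under IL-4+anti-CD40, above every unstimulated library. Libraries with DSF were at 11.7, 10.6, 10.8 and 9.97 FPKM under LPS, the highest group of the gene, and 9.57, 10.1, 9.77 and 9.7 under IL-4+anti-CD40, where the groups overlapped. The rise with LPS was 0.55 (SE 0.131, adjusted p = 0.00569, edgeR), 0.32 against unstimulated libraries 1 and 2 alone and 0.86 against 3 and 4, and did not pass the test by total counts (0.32, adjusted p = 0.0878). DSF raised Ercc6 by 0.50 under LPS (SE 0.0484, adjusted p = 1.1e-09, edgeR), and the value of 0.14 under IL-4+anti-CD40 (SE 0.0604) did not pass the test (adjusted p = 0.0589). It passed with DESeq2 (0.16, adjusted p = 0.0365), was -0.0068 by total counts, and passed without IL-4+anti-CD40 library 3 (0.19, adjusted p = 0.0123).

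The effect of DSF on Ercc6 also differed between the stimuli when the difference itself was tested over 16 libraries: it was larger by 0.36 with LPS (SE 0.0814, adjusted p = 0.00516, edgeR), the only one of the 10 genes called, where 7.92% of 15130 genes were higher and 6.96% lower. In one fit over all 20 libraries the difference was 0.29 and did not pass the test (adjusted p = 0.272). For the other 9 genes the differences lay between -0.26 and 0.083, with SEs from 0.079 to 0.178.

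Ercc8, the CSA subunit of the ubiquitin ligase that acts with CSB (chromosome 13, 108158731 to 108195364, plus strand), was the lowest of the 10 genes in unstimulated cells, at 1.84, 1.94, 1.32 and 1.51 FPKM. It was at 4.23, 3.95, 3.7 and 3.83 FPKM under LPS and 4.7, 4.38, 3.6 and 3.55 under IL-4+anti-CD40. In the DSF libraries Ercc8 was at 3.05, 3.36, 2.93 and 2.97 FPKM under LPS and 3.14, 3.12, 2.87 and 3.2 under IL-4+anti-CD40, between the unstimulated and the stimulated libraries without overlap. The rises were 1.26 with LPS (SE 0.122, adjusted p = 3.56e-05, edgeR) and 1.32 under IL-4+anti-CD40 (SE 0.15, adjusted p = 8.25e-05), and against unstimulated libraries 1 and 2 alone 1.08 and 1.11. DSF lowered Ercc8 by 0.33 (SE 0.0684, adjusted p = 0.000124, edgeR) and 0.42 (SE 0.0961, adjusted p = 0.00279), so with DSF it was still higher than in unstimulated cells, by 0.90 and 0.91. Uvssa, which stabilises CSB on the polymerase, fell with both stimuli (-0.76 and -0.87) and again with DSF (-0.54 and -0.51). Elof1, an elongation factor of the same step, fell with DSF by 0.36 and 0.22.

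TFIIH opens the DNA around the lesion, and in the first experiment DSF lowered both of its helicase genes. Ercc3, the XPB subunit (chromosome 18, 32240300 to 32270151, plus strand), had the highest level of the 10 genes in every group. It was at 19.7, 20.2, 16.5 and 16.9 FPKM in unstimulated cells, 20, 20.7, 21.9 and 22.2 under LPS and 22.6, 22.9, 20.1 and 22.3 under IL-4+anti-CD40. The DSF libraries lay at 16.1, 15.8, 14.8 and 15.9 FPKM under LPS and 17.5, 17.6, 15.7 and 16.7 under IL-4+anti-CD40, below each stimulus alone in every library. DSF lowered Ercc3 by 0.42 (SE 0.0523, adjusted p = 1.03e-07, edgeR) and 0.40 (SE 0.0623, adjusted p = 0.000172). The groups overlapped between LPS and unstimulated cells, and the rise of 0.23 with LPS (adjusted p = 0.0265, edgeR) and of 0.29 with IL-4+anti-CD40 (adjusted p = 0.0155) depended on single libraries. Without LPS library 3 or 4 or unstimulated library 3 or 4 the LPS rise did not pass the test (adjusted p from 0.0545 to 0.0687), nor did the IL-4+anti-CD40 rise without unstimulated library 3 (adjusted p = 0.0613). Against unstimulated libraries 1 and 2 alone the rises were 0.12 and 0.15 (adjusted p = 0.0709 and 0.107), and scaled by total counts -0.0021 and 0.13 (adjusted p = 0.985 and 0.245).

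Ercc2, the XPD helicase that tracks along the damaged strand (chromosome 7, 19382010 to 19395694, plus strand), was at 9.14, 8.84, 5.99 and 6.32 FPKM in unstimulated cells, again split 1 and 2 from 3 and 4. It was at 13.4, 14.8, 12.4 and 13.6 FPKM with LPS, 14.1, 13.7, 13.3 and 12.9 under IL-4+anti-CD40, 10.7, 10.1, 11.8 and 11.1 with LPS and DSF, and 10.8, 11, 10.8 and 10.7 when DSF was added to IL-4+anti-CD40. No library with DSF overlapped either the unstimulated or the stimulated libraries. The rises were 0.86 with each stimulus (SE 0.139 and 0.137, adjusted p = 0.000694 and 0.000556, edgeR), 0.62 and 0.60 against unstimulated libraries 1 and 2 alone and 1.17 and 1.16 against 3 and 4. DSF lowered Ercc2 by 0.30 (SE 0.0593, adjusted p = 9.48e-05, edgeR) and 0.34 (SE 0.0513, adjusted p = 0.000139). Of its exon bases 42.7% are shared with other genes, among them Klc3 (744 bases) and the antisense gene Gm26852 (1025 bases), so its counts are uncertain.

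Over the whole complex 8 of 10 TFIIH genes were lower with DSF under each stimulus and 1 higher, with medians of -0.34 and -0.37. Of all genes tested 36% were lower and 35.1% higher under LPS, and 31.6% lower and 30.1% higher under IL-4+anti-CD40. The 1 higher TFIIH gene was Gtf2h1, the p62 subunit that binds XPC, which rose by 1.22 (SE 0.0434) with LPS and 0.98 (SE 0.0707) with IL-4+anti-CD40. Gtf2h4, the p52 subunit that anchors XPB, fell by 1.13 and 1.04, and Gtf2h5, the small subunit lost in one form of trichothiodystrophy, by 0.54 and 0.38. Of the kinase module, Cdk7 fell by 0.21 and 0.36 and Ccnh by 0.27 and 0.31, while Mnat1 had -0.040 and -0.066 and did not pass the test. With the stimuli alone 7 and 9 of the 10 TFIIH genes rose, where 29.6% and 30.4% of all genes tested were higher. Ccnh was called lower with LPS (-0.50, adjusted p = 0.000455, edgeR), and no TFIIH gene was called lower with IL-4+anti-CD40.

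Xpa, the factor that verifies the lesion and holds the incision complex together (chromosome 4, 46155347 to 46196311, minus strand), was the gene with the widest range of group means, 1.6 in log2 CPM. It was at 9.3, 9.04, 11.3 and 11.3 FPKM in unstimulated cells, 6.31, 7.12, 5.44 and 6.48 under LPS and 6.35, 5.78, 5.35 and 5.72 under IL-4+anti-CD40. With DSF it was at 2.6, 2.94, 4.13 and 3.77 FPKM under LPS and 3.99, 3.66, 4.02 and 3.31 under IL-4+anti-CD40. In the first experiment the levels fell in 2 steps without overlap, first with the stimulus and again with DSF. The stimuli lowered Xpa by 0.68 (SE 0.126, adjusted p = 0.00147, edgeR) and 0.80 (SE 0.123, adjusted p = 0.000456). DSF lowered it by 0.90 (SE 0.127, adjusted p = 7.78e-07, edgeR) and 0.65 (SE 0.105, adjusted p = 0.000245), so that with a stimulus and DSF it was 3.04-fold and 2.71-fold below unstimulated cells. Its promoter, printed above, was the only one of the 7 with 2 NRF1 core matches. The 3 genes whose log2 CPM followed Xpa most closely over the 20 libraries were Slc25a4 (Pearson's r 0.975), Hint2 (0.969) and Acp6 (0.968), out of 14413 genes compared; the libraries share their groups, so this describes the pattern across groups.

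The 3 incision genes responded to DSF in different ways. Ercc4, the XPF nuclease subunit (chromosome 16, 13109684 to 13150617, plus strand), was at 5.06, 5.12, 5.7 and 5.6 FPKM in unstimulated cells, 4.32, 4.35, 4.01 and 4.29 under LPS and 5.04, 4.9, 4.34 and 4.06 under IL-4+anti-CD40. The levels with DSF were 1.83, 1.96, 1.59 and 1.65 FPKM under LPS and 2.35, 2.43, 1.94 and 1.94 under IL-4+anti-CD40. The highest library with DSF, at 2.43, lay below the lowest without it, at 4.01. DSF lowered Ercc4 by 1.25 (SE 0.0793, adjusted p = 3.95e-13, edgeR) and 1.11 (SE 0.103, adjusted p = 4.96e-06). LPS alone lowered it by 0.33 (SE 0.0712, adjusted p = 0.00355, edgeR), and with IL-4+anti-CD40 the value was -0.21 and did not pass the test (adjusted p = 0.0934). The latter value passed by total counts (-0.36, adjusted p = 0.00596, edgeR) and in one fit over all 20 libraries (-0.26, adjusted p = 0.011). Brd3 (Pearson's r 0.992), Casd1 (0.99) and Letmd1 (0.99) followed Ercc4 most closely over the 20 libraries.

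Ercc1, the non-catalytic partner that XPF needs for stability and DNA binding (chromosome 7, 19344778 to 19356524, plus strand), was at 5.46, 5.37, 5.6 and 5.11 FPKM in unstimulated cells. It was at 8.08, 7.35, 5.92 and 7.24 FPKM with LPS, 6.52, 7.22, 7.53 and 6.45 with LPS and DSF, 7.75, 7.51, 8.07 and 7.43 under IL-4+anti-CD40, and 6.52, 7.43, 7.32 and 7.54 when DSF was added to it. The 4 stimulated groups overlapped one another. All lay above the unstimulated libraries on the FPKM scale, and with LPS this separation depended on that scale. The stimuli raised Ercc1 by 0.42 (SE 0.1, adjusted p = 0.00556, edgeR) and 0.54 (SE 0.0775, adjusted p = 0.000321). With DSF the log2 fold changes were -0.028 (SE 0.0859, adjusted p = 0.781, edgeR) and -0.11 (SE 0.0737, adjusted p = 0.198). By total counts they were -0.24 and -0.26 and passed the test (adjusted p = 0.0181 and 0.009, edgeR), and the rise with LPS, at 0.20, did not (adjusted p = 0.12). Set against Ercc4 within each library, the ratio of Ercc1 to Ercc4 FPKM was 1.01 ± 0.0733 (SD, n = 4) in unstimulated cells, 1.68 ± 0.162 under LPS and 1.69 ± 0.179 under IL-4+anti-CD40. With DSF it was 3.97 ± 0.521 and 3.37 ± 0.541, and the lowest ratio of any library with DSF was 2.78. The ratio rests on annotated exon lengths (3111 bases for Ercc1 and 6730 for Ercc4). It therefore compares groups and does not give the relative number of transcripts of the 2 subunits. This ratio was chosen after its values were seen and was not tested.

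Ercc5, the XPG nuclease that makes the other cut (chromosome 1, 44147744 to 44181260, plus strand), was at 3.9, 4, 3.93 and 3.51 FPKM in unstimulated cells, 2.13, 2.32, 2.14 and 1.96 under LPS, and 2.17, 2.07, 2.3 and 1.58 under IL-4+anti-CD40. With DSF it was at 1.54, 1.38, 1.55 and 1.41 FPKM under LPS, below every LPS library, and 1.84, 1.67, 1.68 and 1.63 under IL-4+anti-CD40, where the groups overlapped. The stimuli lowered Ercc5 by 0.83 (SE 0.0794, adjusted p = 3.39e-05, edgeR) and 0.89 (SE 0.126, adjusted p = 0.000275). DSF lowered it by 0.52 with LPS (SE 0.097, adjusted p = 3.4e-05, edgeR), and the value of -0.27 with IL-4+anti-CD40 (SE 0.119) did not pass the test (adjusted p = 0.0665). Without IL-4+anti-CD40 library 4, the lowest of its group, that value was -0.37 and passed (adjusted p = 0.00615). Of the single-strand DNA binding complex RPA, which covers the undamaged strand at this step, Rpa1 fell with both stimuli (-1.17 and -0.90) and with DSF (-0.43 and -0.30), and Rpa3 fell by 1.05 and 0.48 with DSF.

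Against unstimulated cells, the cells given LPS and DSF had 4 of the 10 genes higher and 6 lower, where 34.3% of all genes tested were higher and 37.3% lower. In cells given IL-4+anti-CD40 and DSF 4 were higher and 5 lower, where the background was 33.4% and 35.3%. The higher genes were Ercc6, Ercc8, Ercc2 and Ercc1 in both, and the lower ones in both were Ddb2, Xpc, Xpa, Ercc4 and Ercc5. Scaled by total counts 2 genes were higher in each comparison, since Ercc2 (0.12 and 0.21, adjusted p = 0.486 and 0.231) and Ercc1 (-0.038 and 0.12, adjusted p = 0.696 and 0.198) did not pass the test. By that scaling Ercc3 was also called lower with IL-4+anti-CD40 and DSF (-0.42, adjusted p = 0.00399, edgeR). These comparisons share the unstimulated libraries. Against unstimulated libraries 3 and 4 alone the number lower with LPS and DSF was 4, without Ddb2 (-0.15, adjusted p = 0.151) and Ercc3 (-0.10, adjusted p = 0.189). Single libraries also decided both calls: that of Ddb2 was lost without library 2, 3 or 4 of LPS with DSF or unstimulated library 1 or 2 (adjusted p from 0.0524 to 0.0869, edgeR), and that of Ercc3 without any 1 of the 4 libraries of LPS with DSF (adjusted p from 0.0598 to 0.104) and with DESeq2 (adjusted p = 0.061).

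Of 41 further genes of the pathway, listed by their step, 29 were lower and 7 higher with DSF under LPS, and 25 lower and 5 higher under IL-4+anti-CD40, with medians of -0.31 and -0.33. Over all genes tested 36% were lower and 35.1% higher under LPS, and 31.6% and 30.1% under IL-4+anti-CD40. By total counts the number of the 41 genes higher with DSF was 3 under LPS and 2 under IL-4+anti-CD40. The largest rises with DSF under LPS were Gtf2h1 (1.22), Pcna, the sliding clamp (0.60), and Cul4b, a scaffold of the DDB2 ubiquitin ligase (0.40), and under IL-4+anti-CD40 Gtf2h1 (0.98), Pold4 (0.35) and Rbx1 (0.23). The largest decreases under LPS were Gtf2h4 (-1.13), Rpa3 (-1.05) and Pold2, a subunit of DNA polymerase delta (-1.03), and under IL-4+anti-CD40 Pold2 (-1.13), Gtf2h4 (-1.04) and Lig3, a DNA ligase (-0.64). In resynthesis and ligation 14 of 17 genes fell and 3 rose with LPS, and 10 fell and 2 rose with IL-4+anti-CD40.

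The stimuli alone raised 20 and lowered 13 of the 41 genes with LPS, and raised 23 and lowered 8 with IL-4+anti-CD40, where the shares over all genes tested were 29.6% and 33.3% for LPS, and 30.4% and 32.1% for the other stimulus. Scaled by total counts, the number raised with LPS was 11 and the number lowered with IL-4+anti-CD40 was 14. The largest rises with LPS were Rfc3 (1.37), Pold2 (1.27) and Lig3 (0.93), and with IL-4+anti-CD40 Pold2 (1.44), Pole2 (1.27) and Lig3 (1.13). Pold4, Rfc1 and Pold1 fell most under both, by 1.76, 1.47 and 1.39 with LPS and by 1.82, 1.36 and 1.42 with IL-4+anti-CD40. Pold2 thus rose with each stimulus and fell with DSF, and Pold4 did the reverse, within the same polymerase. Rfc and Pold genes are also used in DNA replication.

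**Figure D3:**
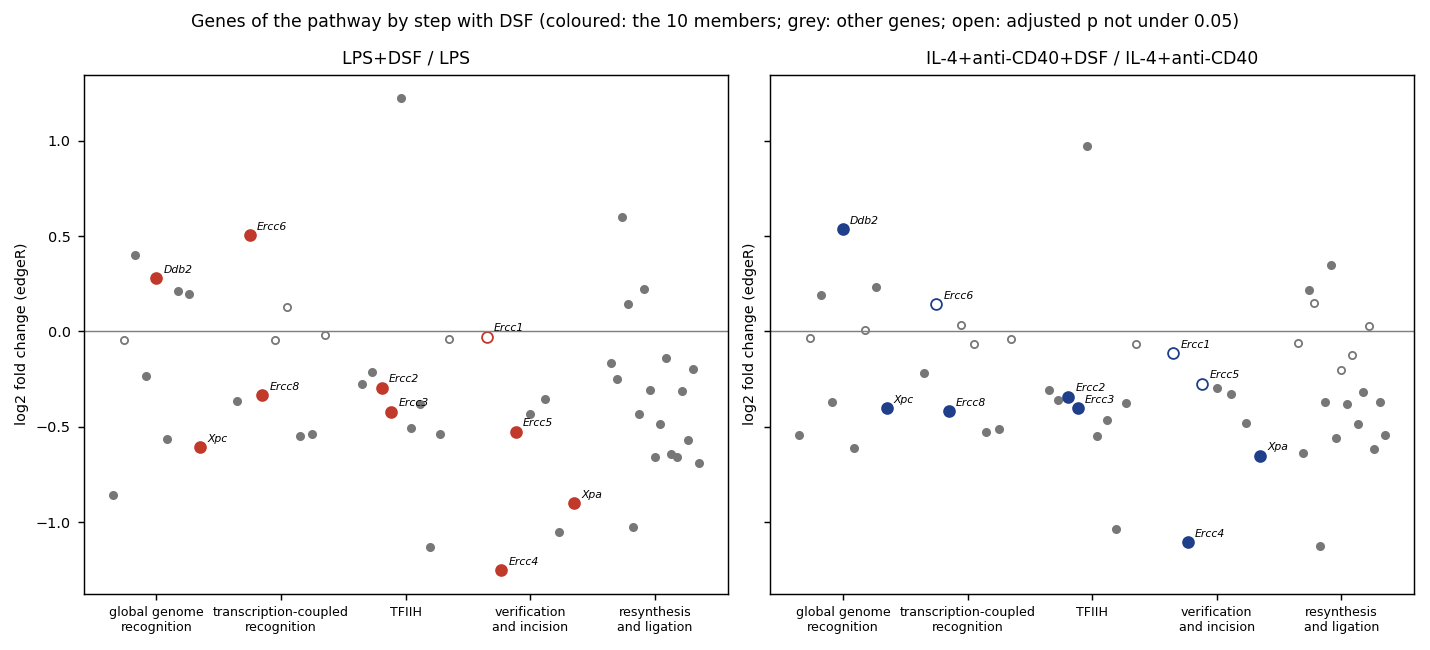
Log2 fold change with DSF (y axis, edgeR) of every gene of the 5 steps of the pathway (x axis) under LPS (left) and IL-4+anti-CD40 (right), with the 10 genes in colour, the other 41 in grey and open symbols for genes that did not pass the test. Most points lie below 0, and Gtf2h1 of TFIIH is the highest point in both panels, at 1.22 and 0.98.

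The second experiment gave 1 library per condition, so its values carry no test. Intervals below are 95% Clopper-Pearson intervals of the counts and cover counting error only. Ercc4 was at 4.62 FPKM with LPS, 1.02 with LPS and DSF and 5.09 with LPS and ibrutinib, and at 5.18, 1.14 and 5.24 with IL-4+anti-CD40. The log2 ratio with DSF was -2.16 (interval -2.48 to -1.89) under LPS and -2.15 (-2.47 to -1.88) under IL-4+anti-CD40, against 0.16 and 0.024 with ibrutinib. Xpa was at 8.29, 2.6 and 8.32 FPKM in the LPS series and at 7.53, 2.4 and 8.01 in the IL-4+anti-CD40 series, with log2 ratios of -1.65 and -1.62 for DSF and 0.025 and 0.097 for ibrutinib. Both genes were low in the DSF libraries only.

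With DSF 5 of the 10 genes were at least 2-fold lower under LPS and none was at least 2-fold higher, where 19.5% of 14275 genes were at least 2-fold lower and 20.3% higher. Under IL-4+anti-CD40 5 were at least 2-fold lower and 1, Ddb2, at least 2-fold higher (1.14), where the background was 20.3% and 21.9%. The 5 lower genes were Ercc4, Xpa, Ercc3, Ercc8 and Xpc under both. Ercc3 had ratios of -1.33 and -1.14, Ercc8 of -1.17 and -1.38, and Xpc of -1.05 and -1.03. These ratios were larger than the corresponding fold changes of the first experiment, a difference that was not tested. Ercc8 in the DSF libraries, at 1.47 and 1.4 FPKM, was below the unstimulated library of the same experiment at 1.65, whereas in the first experiment it stayed above. Ercc6 was higher with DSF, by 0.45 and 0.33, and scaled by total counts by 0.15 and 0.086. Ercc2 had ratios of -0.27 (interval -0.41 to -0.14) under LPS and -0.15 (-0.30 to -0.0011) under IL-4+anti-CD40. With a mean of at least 50 counts they were -0.12 and 0.0002, and by total counts -0.58 and -0.39.

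Ercc5 and Ercc1 had ratios above 0 with DSF in the second experiment. Ercc5 was at 2.34 FPKM with LPS and 3.04 with LPS and DSF, and at 2.43 and 3.37 with IL-4+anti-CD40, with log2 ratios of 0.39 (interval 0.14 to 0.63) and 0.48 (0.24 to 0.73), where the first experiment gave -0.52 and -0.27. Ercc1 had 0.32 (0.13 to 0.51) and 0.36 (0.17 to 0.55), where the first experiment gave -0.028 and -0.11. Scaled by total counts the ratios under LPS were 0.081 for Ercc5 and 0.0100 for Ercc1, and that of Ercc1 under IL-4+anti-CD40 was 0.11.

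With ibrutinib 0 of the 10 genes differed 2-fold or more from the same stimulus alone, where 5.28% of genes passed that fold in either direction under LPS and 3.92% under IL-4+anti-CD40. Its largest ratio was that of Ddb2, 0.63 (interval 0.44 to 0.83) under LPS and 0.47 (0.22 to 0.74) under IL-4+anti-CD40, and the lowest that of Ercc8, -0.43 (-0.61 to -0.26), under IL-4+anti-CD40. Against the unstimulated library, 1 of the 10 genes was at least 2-fold apart with LPS (Ercc8, log2 ratio 1.02) and 2 with IL-4+anti-CD40 (Ercc8, 1.15, and Ddb2, -1.67), where 18.5% and 24.4% of genes passed 2-fold in either direction. Xpa had -0.19 (interval -0.41 to 0.033) with LPS and -0.34 (-0.57 to -0.11) with IL-4+anti-CD40, where the first experiment gave -0.68 and -0.80. Ercc6 had 0.18 and 0.19, where the first experiment gave 0.55 and 0.75, and by total counts 0.031 and 0.047.

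**Figure D4:**
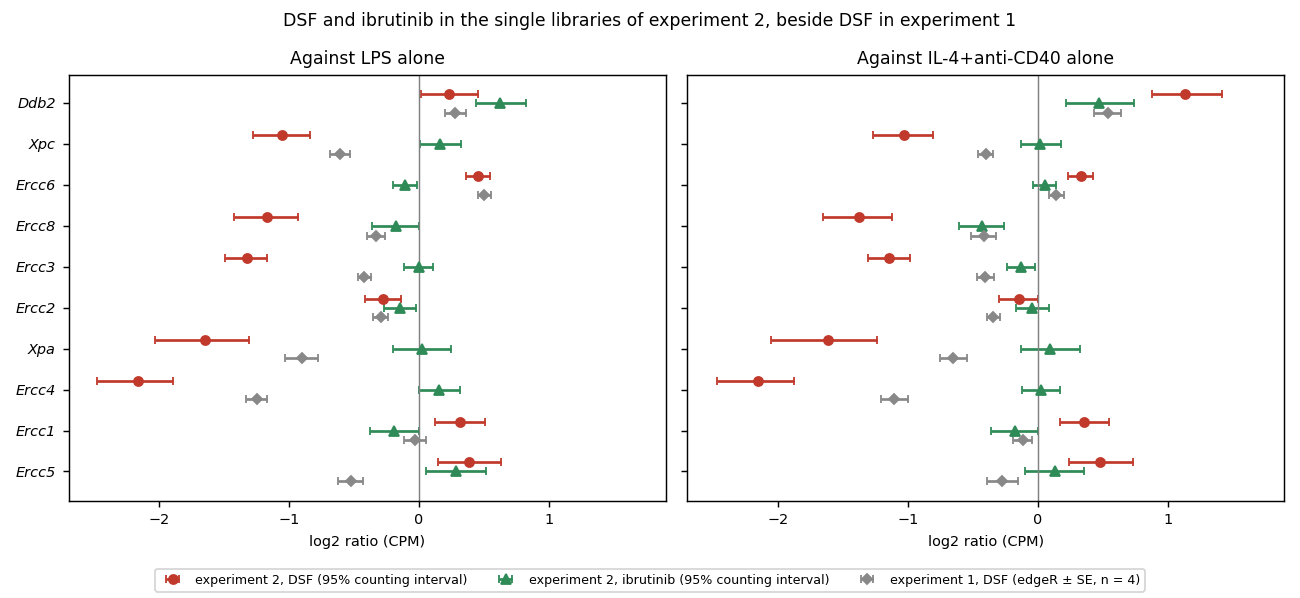
Log2 ratio (x axis) of the 10 genes (y axis) with DSF (circles) and ibrutinib (triangles) against the same stimulus in the single libraries of the second experiment, with 95% counting intervals, and with DSF in the first experiment (diamonds, ± SE, n = 4), under LPS (left) and IL-4+anti-CD40 (right). Ercc4 lies near -2.16 and -2.15 with DSF and close to 0 with ibrutinib, and Ercc5 lies above 0 with DSF in the second experiment and below 0 in the first.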

How the data were processed

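RNA-seq of mouse splenic B cells gave 20 libraries in the first experiment (4 per group) and 7 single libraries in the second. The authors deposited whole-number counts per gene without normalization, and FPKM that they calculated from them. Per the submitters' processing notes, the reads were mapped with HISAT2 2.0.5 to mm10 and counted with featureCounts 1.5.0-p3; the strand setting and the annotation release are not given in the sources used here. The directional kit is described as one of 2 options. Gene starts, ends and exon lengths in the files equalled those of GENCODE vM21 for the 10 genes. The deposited FPKM were a median of 1.24 to 1.32 times RPKM computed with TMM in each library.

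Counts were tested with the quasi-likelihood test of edgeR 4.0.16 in R 4.3.3 (TMM, filterByExpr, only the groups compared, no block), with Benjamini-Hochberg adjustment over all genes tested and 0.05 as the threshold; the difference between the DSF effects was tested as an interaction. Tested on simulated data made from the libraries with LPS, with and without DSF, edgeR found 200 of 200 genes changed 2-fold, with 9 false calls among 14154 genes. For the difference between the DSF effects it found 180 of 200, with 11 false calls among 15130 genes. Most changes of the 10 genes were smaller than 2-fold, and for such changes the share found was not simulated. Levels are means ± SD of the deposited FPKM. The second experiment was described by log2 ratios of TMM-normalized CPM (prior count 2), keeping genes that averaged 10 counts or more. Its libraries totalled 16049295 to 24619776 counts, and the 10 genes had 65 to 2557 counts. The chi-square per gene between replicates was 2.86 to 90.7 over 30 pairs, above sampling noise in each.

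The 10 genes, the lists of repair genes, p53 targets and cell type markers, and the tests were chosen with earlier results of these data known. All 10 genes are named; of the other 41 genes of the pathway the 3 called with the largest log2 fold change in each direction are named for both stimuli and for DSF under both, besides members needed to describe a complex, and for the 2 genes with the widest range the 3 genes most correlated with them. A few results are not reported here. Members of the global genome and transcription-coupled recognition, TFIIH and incision lists were named in this way. Alternatives were DESeq2 1.42.0, DESeq2's size factors or total counts in edgeR, no filter beyond any count, at least 10 counts in every library, one fit over 20 libraries, a replicate block, each library left out in turn and, for FPKM, geometric means with 0.1 or 1 added and TMM-scaled RPKM. For the second experiment they were total counts, a prior count of 0.5 and a mean of at least 50 counts. Each pair of unstimulated libraries (1 with 2, 3 with 4) was left out as a choice made after seeing the data. The labels and methods call the replicates independent samples but do not tie them to animals, so p-values measure the spread between these samples.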

Additional observations from a re-analysis of the deposited data

Results flagged for a closer look

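In the group with LPS and DSF, library 3 stood apart for Xpc, at 4.4 FPKM against 3.4 to 3.53 in the other libraries of the group, a gap of 0.865 of the group's range, above Dixon's 95% critical value for 4 samples. It was the only such value among 50 sets of 4 libraries examined, where chance gives about 1 in 20. It remained below every library with LPS alone. Without it the DSF effect on Xpc was stronger with LPS than with IL-4+anti-CD40 by -0.30 on the log2 scale and passed the test (adjusted p = 0.0183, edgeR), and with it the difference was -0.21 (adjusted p = 0.166).

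The DSF effect on Ercc6 was larger with LPS than with IL-4+anti-CD40 by 0.357 on the log2 scale (SE 0.0814, adjusted p = 0.00516, edgeR's interaction test over 16 libraries), singled out because the effects under the stimuli differed by a test of the difference. In one fit over all 20 libraries it was 0.29 and did not pass (adjusted p = 0.272). In the second experiment the ratios with DSF were 0.45 (counting interval 0.36 to 0.54) with LPS and 0.33 (0.23 to 0.43) with IL-4+anti-CD40. By total counts they were 0.15 and 0.086. The intervals overlapped, and with 1 library per condition their order was not tested.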

How the results depend on the processing

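Of 1360 values recomputed for the 10 genes in the first experiment, 1280 kept their direction and their side of the threshold, 31 lost and 23 gained a call, and 26 changed sign; 149 of 150 FPKM levels and 157 of 180 log2 ratios of the second experiment moved by less than the spread or the counting interval. Total counts changed most: the genes higher were 2 with LPS, 1 with LPS and DSF against LPS, and 2 and 2 with a stimulus and DSF against unstimulated cells; the genes lower were 5 with IL-4+anti-CD40 against unstimulated cells and 3 with LPS against IL-4+anti-CD40. Signs turned there for Ercc3 with LPS (-0.0021), Ercc6 with IL-4+anti-CD40 and DSF (-0.0068), Ercc1 with LPS and DSF against unstimulated cells (-0.038), Ercc8, Ercc2 and Ercc5 between the stimuli (-0.13, -0.080 and -0.011) and Ercc2 in the difference between DSF effects (-0.012). One fit over 20 libraries gave 5 genes lower with IL-4+anti-CD40, 0 higher in the difference between DSF effects, -0.029 for Ercc2 there, and -0.0014 for Ercc8 between the stimuli. DESeq2, its size factors in edgeR, and at least 10 counts in every library each gave 2 genes higher when DSF was added to IL-4+anti-CD40; between the stimuli Ercc8 was -0.010 under the first and the second of these, and Ercc3 was 0.0100 with any count. Against unstimulated libraries 3 and 4, Ercc3 was 0.018 with IL-4+anti-CD40 and DSF. Against unstimulated libraries 1 and 2 it was -0.26 and passed the test (adjusted p = 0.003, edgeR).

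Leaving out 1 library in turn, the genes higher with IL-4+anti-CD40 and DSF were 1 to 2, the genes lower between the stimuli 0 to 1, and the genes lower in the difference between DSF effects 0 to 1. Signs turned only for values that had not passed the test: between the stimuli Ercc8 ran from -0.052 to 0.082, Ercc3 from -0.043 to 0.025 and Ercc1 from -0.12 to 0.024; with LPS and DSF Ercc1 ran from -0.13 to 0.012; and in the difference between DSF effects Ercc3 ran from -0.059 to 0.017. In the second experiment total counts gave 0 genes at least 2-fold higher and 1 lower with LPS, 2 lower with IL-4+anti-CD40, and 0 higher with IL-4+anti-CD40 and DSF, and a mean of at least 50 counts gave 0 higher with LPS and 3 lower with IL-4+anti-CD40 and DSF. The replicate numbers did not pair the libraries (correlations of same-numbered libraries from -0.056 to 0.17 over 40 pairs, 5 of 20 libraries closest to their own number). With the replicate block Ercc3 with LPS had 0.23 (adjusted p = 0.0702, edgeR) and no other call of the 10 genes changed. The cause of these shifts was not tested. Counting error was widest for Xpa in the second experiment, where it had 65 and 85 counts with DSF.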

Other observations

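Genes of base excision repair and p53 targets were listed beside nucleotide excision repair. With DSF, 8 of 14 base excision genes tested were lower and 2 higher under LPS, and 9 lower and 1 higher with IL-4+anti-CD40 (edgeR, DSF against the same stimulus), where 36% of all genes tested were lower and 35.1% higher under LPS and 31.6% and 30.1% under IL-4+anti-CD40. Nthl1, a glycosylase for oxidised pyrimidines, fell by 2.29 and 1.29, and Ung, the uracil glycosylase, which had risen with the stimuli by 1.28 and 1.67, fell by 1.35 and 1.34. Neil1, a further glycosylase, rose by 0.43 and 0.85, and Ogg1 and Mbd4 did not pass the test under either stimulus. The naming rule of the pathway did not cover this list. Without any 1 of the LPS libraries or without library 4 of LPS with DSF, the number of base excision genes that rose with DSF under LPS was 1.

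Of the p53 target list, 12 of 17 genes tested were higher with DSF under LPS and 4 lower, and 12 of 18 were higher and 4 lower under IL-4+anti-CD40, beside the same shares of all genes tested. Cdkn1a, the cell cycle inhibitor p21, rose by 2.37 and 1.47, and Mdm2, the ubiquitin ligase of p53, by 1.19 and 0.77. Of the genes lower under both stimuli, Ccng1 fell by 0.64 and 0.64, Aen by 0.40 and 0.87, and Zmat3 by 0.28 and 0.85. These genes were picked for naming after their values were seen.

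For Ercc5 and Ercc1 the sign with DSF differed between the experiments under both stimuli. Ercc5 had -0.52 and -0.27 in the first and 0.39 and 0.48 in the second, and Ercc1, which did not pass the test in the first (-0.028 and -0.11), had 0.32 and 0.36 in the second. Scaled by total counts the second experiment gave 0.081 for Ercc5 and 0.0100 for Ercc1 under LPS. The differences were not tested, since the second experiment has 1 library per condition.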
